A study of Rattus norvegicus with 12 samples.

Results

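In rat CD4+ T cells, 94 genes were selected whose mean level climbed from the cerebrospinal fluid (CSF) through the meninges to the parenchyma of the central nervous system (CNS). The T cells recognise myelin basic protein (MBP), a protein of the myelin sheath, carry green fluorescent protein (GFP) and were sorted in the cold from Lewis rats, labelled wild type, with experimental autoimmune encephalomyelitis. The compared groups are T cells from blood, from CSF, from spinal cord meninges and from CNS parenchyma, with 3 libraries each, 12 in all. All groups share the strain, the genotype label and the GFP-marked MBP-specific cells. The sources used here do not give the age of the rats, the day of disease or any pooling of animals. P-values therefore measure only the spread between libraries, which may be partly technical.

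A gene was taken as a member when its mean in parenchyma was at least 5 counts per 1000000 gene counts (CPM), its mean in meninges at least 2 times that in CSF, and its mean in parenchyma above that in meninges. Of 26405 gene identifiers, 8923 reached 5 CPM in parenchyma, 103 of these were at least 2 times higher in meninges than in CSF, and 97 of the 103 were higher still in parenchyma. The rule leaves out 5 identifiers, 3 of which met these thresholds, so that 94 remained. The genes were chosen by their mean CPM in CSF, meninges and parenchyma, so the differences among those 3 groups are described here and not tested. Blood libraries were not used in the choice. Under mirrored thresholds, 1 gene with at least 5 CPM in CSF was at least 2 times higher there than in meninges and lower still in parenchyma. That count rests on the same means and is no test of direction.

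In this disease T cells that recognise myelin circulate in the blood, enter the leptomeninges, whose surfaces are bathed by CSF, and pass on into the nervous tissue. Cells presenting myelin antigen in the meninges and in the parenchyma can activate them again, and activated T cells are known to switch on genes for cytokines, chemokines and signalling regulators. T cells in the CSF are suspended in fluid, without the cell contacts of tissue. Whether the 94 genes belong to such programmes cannot be read from these files: they carry Ensembl identifiers, and 0 of 26405 could be matched to a name, since none of the 47357 entries of the reference table (RefSeq, GRCr8) holds an Ensembl identifier. For the same reason roles, positions and promoter sequences are not given, and markers of T cells, glia, myeloid cells or vessels were not analysed here. Genes are called below by their rank in parenchyma reads, and 4 by identifier. CPM is not divided by gene length, so a rank orders genes by reads and not by transcripts.

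Total gene counts were 11277725 to 22056664 per library. Blood replicate 3 and meninges replicate 2 had the most reads aligned to several places, with 65.2% and 61.4% of all entries where the other 10 libraries had 35.8% to 43.9%, and calls were also made without both. In parenchyma the members had 248 to 52843 counts over the 3 libraries together, but 8 of them had under 30 counts in CSF and 21 had under 30 in blood, so their lowest levels are the least precise. At 0 counts, 3 counts are the upper limit, which is 0.136 to 0.266 CPM in a single library; this limit covers counting error only.

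The genes together took a small but steeply graded part of the reads. In parenchyma they took 0.938%, 1.04% and 0.867% of gene counts in replicates 1, 2 and 3. In meninges the shares were 0.533%, 0.432% and 0.443%, and in CSF 0.172%, 0.109% and 0.168%. In blood, which the choice did not use, they took 0.0913%, 0.0892% and 0.0766%. Every blood library lay below every CSF library, and among the 3 CNS groups, where the choice sets the order, libraries of different groups did not overlap. The mean share went from 0.0857% ± 0.00796 (SD, n = 3) for blood through 0.149% ± 0.0350 for CSF and 0.469% ± 0.0551 for meninges to 0.948% ± 0.0863 for parenchyma. In bulk samples such as these, fewer cells expressing a gene and less RNA per cell cannot be told apart. Whether RNA from other cell types is present in the sorted samples was not tested, as no markers could be used.

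**Figure D1:**
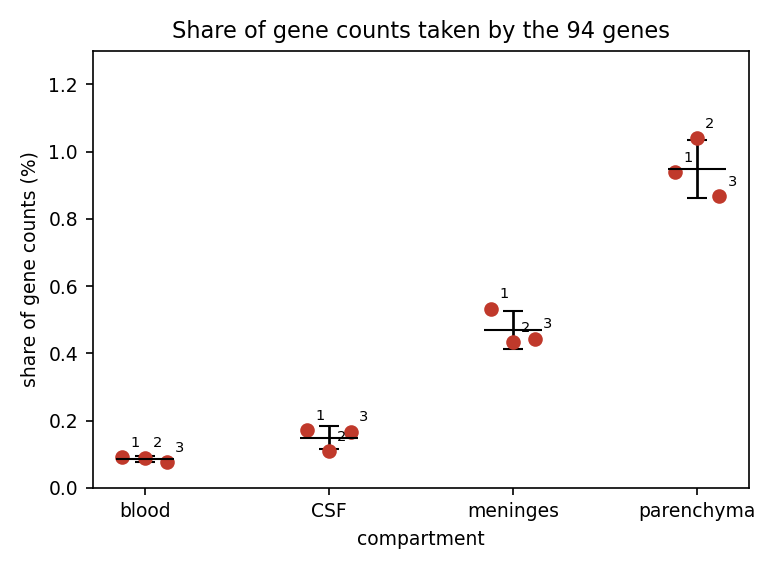
Share of gene counts (%, linear axis from 0) taken by the 94 genes in each library, numbered by replicate, with the mean and SD of 3 libraries per compartment. The parenchyma libraries sit between 0.867% and 1.04%, the blood libraries between 0.0766% and 0.0913%.

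A few genes held much of this signal. The 5 members with most parenchyma reads accounted for 42.3% of the members' reads in parenchyma, 39.1% in meninges, 36.6% in CSF and 25.3% in blood. Their choice by parenchyma reads favours a high share there. The 10 members with most parenchyma reads held 56.9% in parenchyma, 56.8% in meninges, 58.8% in CSF and 54.9% in blood. By mean level in parenchyma, 5 genes stood at 500 CPM or more, 21 at 100 to 500 CPM, 44 at 10 to 100 CPM and 24 under 10 CPM. The median over the 94 genes was 2.79 CPM in blood and 3.86 CPM in CSF, against 13.2 CPM in meninges and 24.3 CPM in parenchyma. Over all 11498 genes tested the medians were 29.9, 28.7, 29.6 and 28.8 CPM in the same order, so the members were mostly genes with few reads in blood and CSF. Blood levels were under 1 CPM for 30 of the 94 genes. No member was among the 1000 identifiers with most reads in blood or in CSF, while 9 were among the top 1000 in parenchyma and 2 among the top 100. Of all 26405 identifiers, 8923 reached the 5 CPM in parenchyma that the rule asks for. The rule also sets CSF below parenchyma, so these counts describe the members only.

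The gene with most reads in parenchyma, ENSRNOG00000021334, was at 13.8, 14.4 and 16.5 CPM in blood replicates 1, 2 and 3. In CSF it was at 272, 69.6 and 238 CPM, and in meninges at 762, 319 and 658 CPM. In parenchyma it reached 1161, 821 and 1245 CPM. Libraries of different compartments did not overlap at any step, and replicate 2 was the lowest library of each CNS group. Against blood its log2 fold change was 3.72 in CSF (SE 0.45, adjusted p = 3.15e-05), 5.29 in meninges (SE 0.47, adjusted p = 2.35e-06) and 6.23 in parenchyma (SE 0.49, adjusted p = 3.23e-07), by edgeR's quasi-likelihood test with Benjamini-Hochberg adjustment over all 11498 genes tested.

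The second, ENSRNOG00000012467, was low in both blood and CSF. It was at 4.89, 17.0 and 6.11 CPM in the blood libraries and at 31.7, 13.6 and 33.0 CPM in CSF. In meninges it was at 344, 267 and 239 CPM and in parenchyma at 939, 1112 and 838 CPM. Blood replicate 2 lay above CSF replicate 2, so blood and CSF overlapped, while meninges and parenchyma stood clear of both and of each other. The meninges mean was 10.9 times the CSF mean and the parenchyma mean 3.40 times the meninges mean. Against blood the log2 fold change was 4.91 in meninges (SE 0.42, adjusted p = 1.79e-06) and 6.72 in parenchyma (SE 0.45, adjusted p = 7.74e-08). In CSF it was 1.48 (SE 0.40, adjusted p = 0.0111), and without blood replicate 3 and meninges replicate 2 it was 1.28 (adjusted p = 0.0527). Without blood replicate 2 the 3 values were 2.29 in CSF, 5.72 in meninges and 7.54 in parenchyma. Over the alternatives that keep the filter on low counts, the adjusted p of the CSF difference ran from 0.000252 to 0.0527.

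The next members by reads differed in how low they were outside the CNS. The gene ranked 3 was at 4.31 ± 0.793 CPM in blood (SD, n = 3), at 31.0 ± 9.53 CPM in CSF, at 250.1 ± 60.4 CPM in meninges and at 723 ± 244 CPM in parenchyma, with 1004 CPM in parenchyma replicate 2 and 565 and 600.4 CPM in the others. The gene ranked 4 ran through 54.0 ± 4.74, 124 ± 28.4, 334 ± 39.6 and 689 ± 76.4 CPM. The gene ranked 5 ran through 135 ± 6.08, 173 ± 17.0, 390 ± 35.0 and 564 ± 53.7 CPM. It thus had a substantial blood level and a 4.19-fold span from blood to parenchyma, against 168-fold for the gene ranked 3. The widest span was that of the gene ranked 14, which had 18 counts in the 3 blood libraries and 8404 in parenchyma. It stood at 0.369 ± 0.182 CPM in blood and 12.7 ± 3.87 CPM in CSF, then at 67.2 ± 4.78 CPM in meninges and 173 ± 27.0 CPM in parenchyma, a ratio of parenchyma to blood of 469.6.

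**Figure D2:**
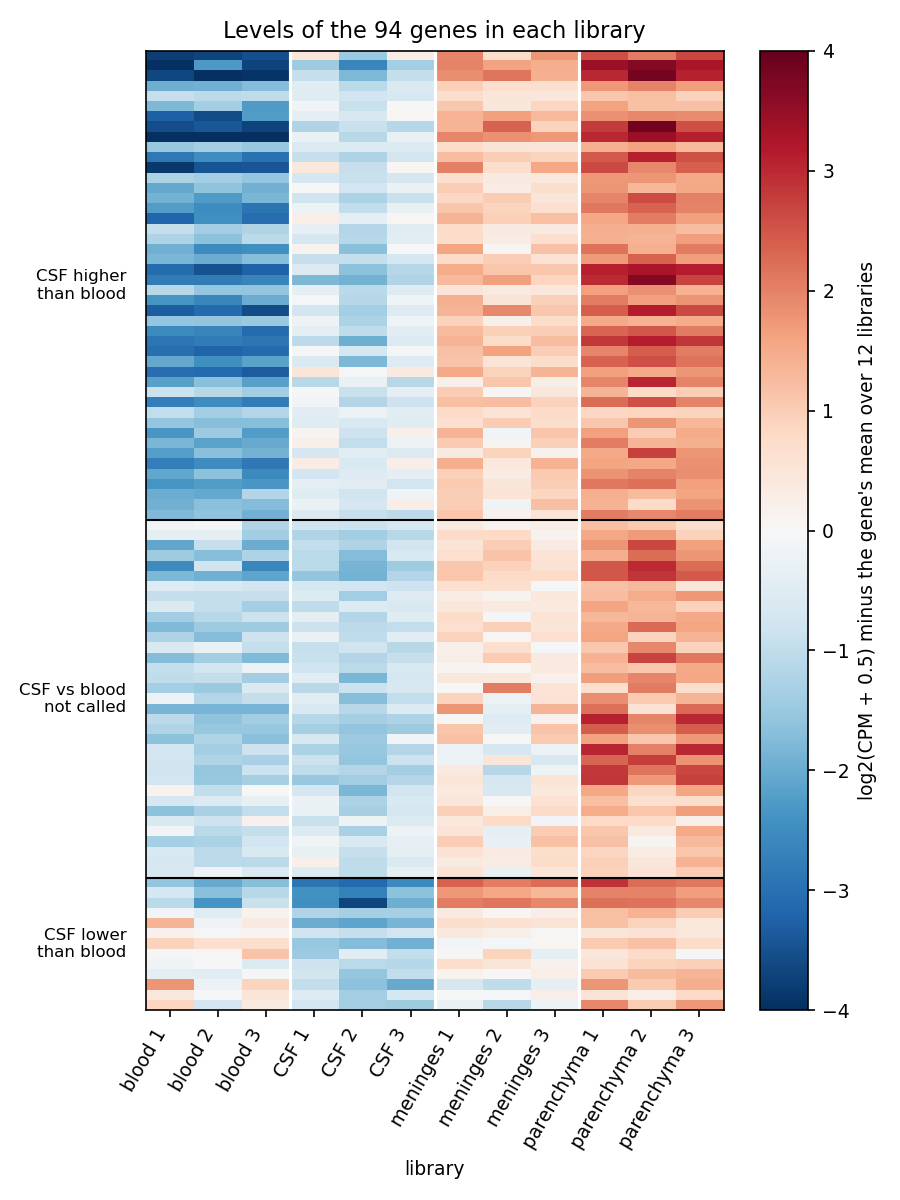
Level of each of the 94 genes (rows) in each library (columns), as log2(CPM + 0.5) minus the gene's mean over 12 libraries, in 3 blocks by the edgeR comparison of CSF with blood: 46 genes higher in CSF, 35 not called and 13 lower. Within a block genes are ordered by parenchyma reads; the first 2 blocks are darkest red in parenchyma, and blood is dark blue in the first block and near or above the gene's mean for most genes of the last.

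Compared with the blood libraries, the libraries of cells sorted from parenchyma had higher levels of nearly all these genes. In parenchyma 89 of the 94 genes were higher than in blood, 94.7% of them, where 24.6% of all genes tested were called higher. By edgeR 0 members were lower, where 25.7% of all genes were, and at an unadjusted p under 0.05 the count was also 0 with edgeR and with DESeq2. The median ratio of parenchyma to blood was 12.4, and 52 genes were at least 10 times higher. In meninges 81 genes were higher than in blood against 16.6% of all genes, and 2 were lower against 19.0%. In meninges 1 gene was lower without blood replicate 1, and without blood replicate 3 and meninges replicate 2 together. There were 3 lower genes without blood replicate 2, with the replicate block and without the filter on low counts. Since the choice asks for high values in parenchyma and in meninges, these counts describe the members and are no independent support for their direction. All 94 genes passed the filter on low counts, as their parenchyma level alone lets them.

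Between blood and CSF the members went different ways. In CSF 46 of the 94 genes were higher than in blood, where 17.5% of all genes tested were called higher. Another 13 were lower, or 13.8%, against 20.0% of all genes, and 35 were not called. The choice favours low CSF values, which works against higher calls and towards lower calls. These counts and the ratios that follow are therefore given as a description of the members. With the replicate number as a block 54 were higher and 15 lower, including all 59 called without it. The median ratio of CSF to blood was 1.70 over the members and 0.965 over all genes tested. In 46 genes all 3 CSF libraries lay above all 3 blood libraries (background 21.5%), and in 11 all 3 blood libraries lay above all 3 CSF libraries (background 29.6%). Blood and CSF overlapped in the remaining genes.

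**Figure D3:**
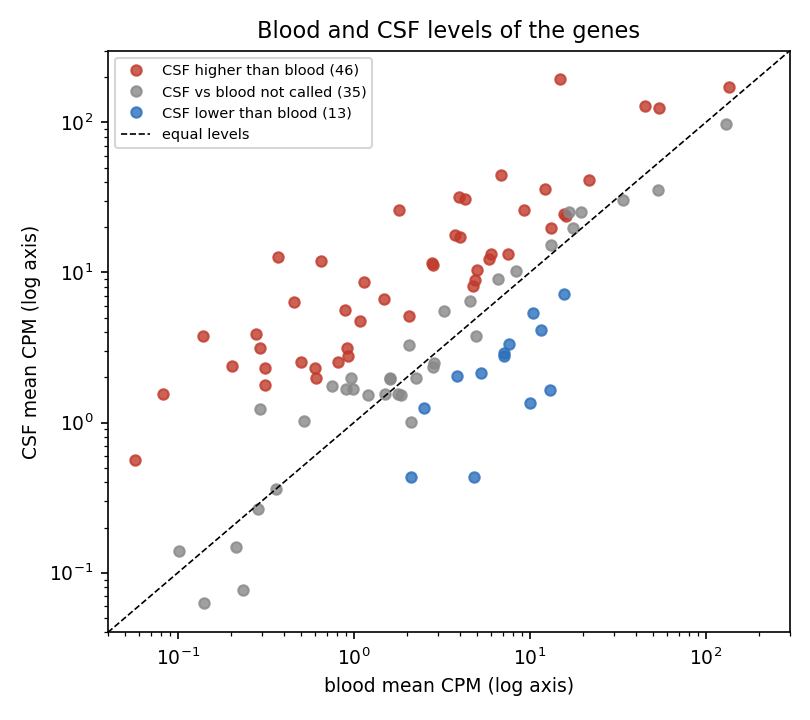
Mean CPM in blood and in CSF (3 libraries each, both axes logarithmic) of the 94 genes, coloured by the edgeR call for CSF against blood. The 46 genes higher in CSF lie above the line of equal levels and span 0.0574 to 135 CPM in blood; the 13 lower in CSF span 2.11 to 15.6 CPM in blood.

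The 46 genes already higher in CSF than in blood rose in mean level over all 4 compartments. The class and the rule together set this order, so the calls and levels that follow are a description. All 46 were also called higher than blood in meninges and in parenchyma. Their median level climbed from 2.41 CPM in blood to 10.8 CPM in CSF, 28.8 CPM in meninges and 66.3 CPM in parenchyma, and together they took 0.0415%, 0.114%, 0.344% and 0.715% of gene counts in these places. Their median ratio was 4.24 from blood to CSF, 2.72 from CSF to meninges and 1.98 from meninges to parenchyma. The 2 genes with most reads belong here. Over the 94 members, 39 had all libraries in the order blood, CSF, meninges, parenchyma without any overlap (background 1.48%). The choice of genes already sets the order of 3 of these 4 groups, so nothing is read from that difference.

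For the 35 genes not called between blood and CSF, any call against blood lay in meninges or parenchyma, by definition of the class. Their median level was 1.84 CPM in blood and 1.97 CPM in CSF, but 5.25 CPM in meninges and 10.1 CPM in parenchyma. In parenchyma all 35 were higher than in blood (24.6% of all genes tested), and in meninges 31 were (16.6%). The rule favours high values in both places, so these counts are a description. The difference between CSF and blood had a median ratio of 1.16, with single genes from 0.328 to 4.24, so an uncalled gene is not shown to be equal in the 2 places. With the replicate block 8 of the 35 were called higher in CSF and 2 lower, and 25 were still not called. The largest blood level among them was 131 CPM, in the gene ranked 7, which stood at 97.4 CPM in CSF, 202 CPM in meninges and 336 CPM in parenchyma.

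The 13 genes lower in CSF than in blood, a direction that the choice of low CSF values favours, had higher levels again in tissue, as the rule requires. Their median level was 7.11 CPM in blood and 2.14 CPM in CSF, then 9.29 CPM in meninges and 11.7 CPM in parenchyma. In parenchyma 8 of the 13 were higher than in blood, where 24.6% of all genes tested were. The other 5 were the only members not called there. In meninges 4 were higher than in blood (16.6% of all genes), 2 were lower (19.0%) and 7 were not called. The rule favours high values in both places, so these counts are a description. For the 5 genes not called in parenchyma the ratio of parenchyma to blood lay between 0.957 and 1.37, with adjusted p-values from 0.117 to 0.985. The lowest ratio belonged to the gene ranked 66, at 7.87, 8.49 and 18.4 CPM in blood and 2.67, 5.95 and 3.85 CPM in CSF. It was at 8.34, 15.6 and 6.22 CPM in meninges and 11.3, 14.3 and 7.68 CPM in parenchyma. Only its CSF libraries stood apart from blood, and meninges and parenchyma overlapped with blood and with each other.

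ENSRNOG00000018414 had the largest fall from blood to CSF among the members. It was at 8.33, 1.72 and 4.37 CPM in blood replicates 1, 2 and 3, and at 0.816, 0.344 and 0.140 CPM in CSF, on 27 CSF counts in all. In meninges it was at 1.15, 0.802 and 1.54 CPM and in parenchyma at 8.33, 4.88 and 6.62 CPM. Parenchyma overlapped with blood, while all CSF and all meninges libraries lay below every blood library. CSF and meninges overlapped, as CSF replicate 1 lay just above meninges replicate 2, and the meninges level rests on 47 counts. The log2 fold change against blood was -3.31 in CSF (SE 0.58, adjusted p = 0.000617), -2.62 without blood replicate 1 and -4.13 without CSF replicate 1. In meninges it was -2.01 (SE 0.53, adjusted p = 0.00954). That call was lost without blood replicate 1, at -1.32 (adjusted p = 0.0616), and without blood replicate 3 and meninges replicate 2, at -1.86 (adjusted p = 0.0563), and over alternatives that keep the filter its adjusted p ran from 0.000386 to 0.0616. In parenchyma the value was 0.51 (SE 0.43, adjusted p = 0.346), and 1.21 without blood replicate 1 (adjusted p = 0.0336, of a range from 0.0336 to 0.817).

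ENSRNOG00000003977 had the next largest fall and a meninges level within the range of the blood libraries. It was at 21.5, 7.17 and 10.5 CPM in blood and at 1.63, 1.48 and 1.82 CPM in CSF. In meninges it was at 13.4, 12.3 and 11.7 CPM, and in parenchyma at 18.8, 15.6 and 11.1 CPM. All blood, meninges and parenchyma libraries lay above all CSF libraries, and those 3 groups overlapped with each other. The log2 fold change against blood was -2.97 in CSF (SE 0.37, adjusted p = 4.76e-05). It was -0.066 in meninges (SE 0.31, adjusted p = 0.889) and 0.26 in parenchyma (SE 0.30, adjusted p = 0.490). Without blood replicate 1 the parenchyma value was 0.84 (adjusted p = 0.00661, of a range from 0.00661 to 0.951), and without blood replicate 2 it was -0.023.

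**Figure D4:**
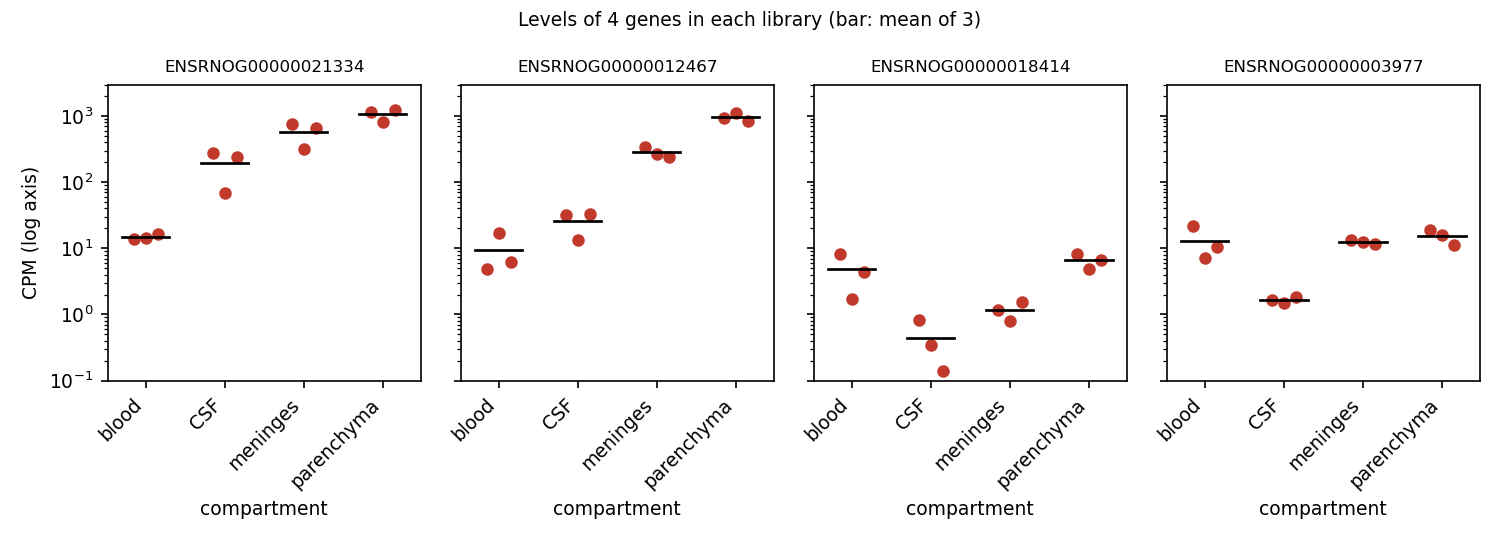
CPM (shared logarithmic axis) in each library of the 2 members with most parenchyma reads and the 2 that fell most between blood and CSF; points are replicates 1 to 3 from left to right and bars are means of 3. ENSRNOG00000021334 and ENSRNOG00000012467 climb to means of 1076 and 963 CPM in parenchyma, while ENSRNOG00000018414 and ENSRNOG00000003977 are lowest in CSF, at means of 0.433 and 1.64 CPM.

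The rise was not evenly divided between the 2 steps. The ratio of meninges to CSF had a median of 2.84 and a range of 2.01 to 38.3, and that of parenchyma to meninges a median of 1.93 and a range of 1.04 to 15.2. Over all genes tested the medians were 1.02 and 0.963. On the log scale the first step made up a median of 62.3% of the rise from CSF to parenchyma, and the requirement of a 2-fold first step favours a large share. The share was between 50% and 75% for 69 genes, under 50% for 11 and 75% or more for 14. Meninges libraries all lay above CSF libraries for 85 of the 94 genes (background 13.3%), and parenchyma libraries all above meninges libraries for 73 (background 11.3%). For 69 genes the 9 libraries followed the order of the 3 groups without overlap (background 4.89%). These counts rest on the groups that chose the genes and say nothing further about them.

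In 6 genes the rise was almost complete in the meninges, with 90% or more of it at the first step. Of these 6, 5 were among the 13 genes lower in CSF than in blood and 1 was not called. A low CSF mean favours both a large first step and a lower call, so nothing is read from this overlap. The gene ranked 18 had the largest first step. It was at 8.68, 6.31 and 7.84 CPM in blood and at 3.08, 2.66 and 4.20 CPM in CSF, but at 140, 112 and 129 CPM in meninges and 203, 127 and 116 CPM in parenchyma. Its meninges and parenchyma libraries overlapped, and both stood far above blood and CSF. From blood to CSF its log2 fold change was -1.20 (SE 0.26, adjusted p = 0.00297). The gene ranked 31 had the smallest second step, with 78.3, 83.4 and 71.4 CPM in meninges and 86.8, 83.9 and 71.4 CPM in parenchyma after 8.39, 3.15 and 9.80 CPM in blood and 2.95, 0.984 and 4.41 CPM in CSF. Blood and CSF libraries overlapped, as did meninges and parenchyma, with a wide gap between the 2 pairs of groups.

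In 11 genes the second step was the larger, and most of these had few reads outside the parenchyma. Their median level was 0.921 CPM in blood, 0.434 CPM in CSF and 1.24 CPM in meninges, and 9.90 CPM in parenchyma. Among them, 6 were not called between CSF and blood, 3 were higher (17.5% of all genes tested) and 2 lower (20.0%). In parenchyma 10 were higher than in blood (24.6%). The rule favours high parenchyma and low CSF values, so these counts are a description. The gene ranked 76 had 20 counts in CSF and 47 in meninges. It was at 0.575, 0.287 and 0.226 CPM in blood and 0.499, 0.0984 and 0.490 CPM in CSF. In meninges it was at 1.06, 2.00 and 0.641 CPM, and in parenchyma at 8.59, 11.6 and 5.79 CPM. Blood and CSF overlapped, and the parenchyma libraries stood clear of all others. The log2 fold change against blood was 4.56 in parenchyma (SE 0.48, adjusted p = 4.55e-06).

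**Figure D5:**
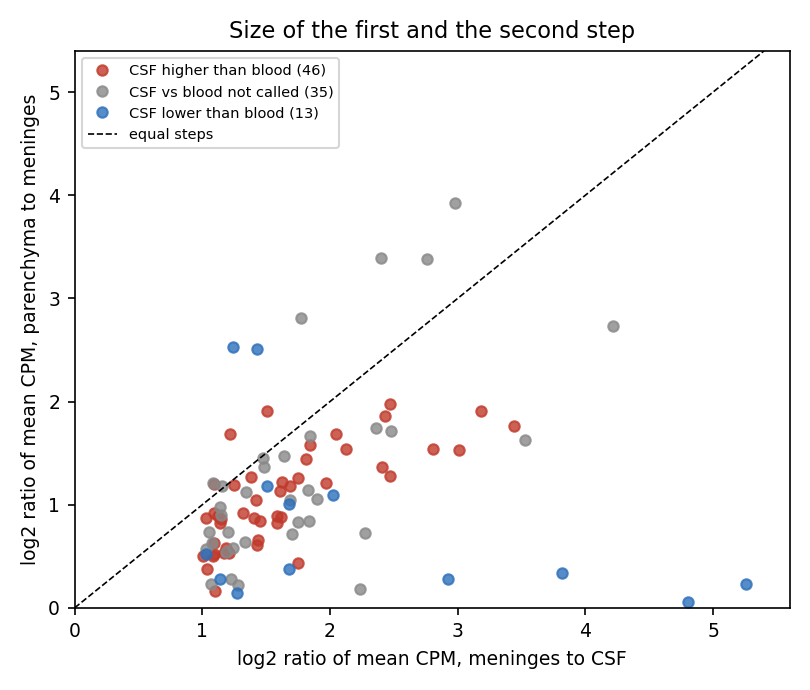
log2 ratio of mean CPM of meninges to CSF (x axis) and of parenchyma to meninges (y axis) for the 94 genes, coloured by the edgeR call for CSF against blood; the dashed line marks equal steps. The 11 genes above the line have the larger second step, and the gene farthest right, with a 38.3-fold first step, is lower in CSF than in blood.

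Libraries of a compartment varied more for these genes than for most. The median coefficient of variation over 3 libraries was 25.9% for blood, 28.9% for CSF, 22.7% for meninges and 21.7% for parenchyma. Over all genes tested it was 7.44%, 9.64%, 8.20% and 9.91% in the same order. The median level over all genes was higher in each group, but in parenchyma only 28.8 against 24.3 CPM. The rule uses means of the CNS groups, so a wide spread there can help a gene to meet it. The cause of the wider spread was not tested. In CSF replicate 2 was the lowest library for 73 of the 94 genes (background 44.8%). A member's level in CSF replicate 2 was a median of 0.639 times the mean of the other CSF libraries, with 0.981 over all genes. Replicate 2 was the lowest CSF library for 38 of the 46 genes higher in CSF than in blood, 28 of the 35 uncalled and 7 of the 13 lower. Without CSF replicate 2 the rule found 79 genes, 76 of them among the 94, and 53 of the 94 were called higher in CSF than in blood in place of 46. A low value in 1 CSF library helps a gene to meet the rule, so this pattern describes the members and nothing is read from its background. The CSF replicate 2 total of 20332064 gene counts was within the range of the other CSF libraries.

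In meninges, replicate 2 was the lowest library for 54 genes (background 42.9%), at a median of 0.867 times the others. Multiply aligned reads were 61.4% of its entries. Blood replicate 3, with 65.2%, was at a median of 0.945 times the other blood libraries. A link between these reads and the members' levels was not tested. Replicate 1 was the highest meninges library for 51 genes (background 34.1%), at a median of 1.20 times the others. The rule uses meninges and parenchyma values as well, so nothing is read from these backgrounds. Parenchyma replicate 2 was the highest of its group for 45 genes (background 30.5%) and the lowest for 36 (background 40.0%). Among the 46 genes higher in CSF than in blood it was highest in 28 and lowest in 15. Among the 35 uncalled genes it was highest in 13 and lowest in 18. Its median ratios to the other parenchyma libraries were 1.17 and 0.808 in these classes. The order of the parenchyma libraries thus differed between members, which is a description only.

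At each limit of the rule the members just inside and the genes just outside were as follows. The members with the lowest parenchyma means were at 5.06 and 5.08 CPM, and the nearest genes left out for this reason at 4.88 and 4.77 CPM. These pairs differed elsewhere: in meninges the members were at 3.28 and 3.41 CPM and the genes left out at 0.418 and 1.15 CPM. The smallest ratios of meninges to CSF among members were 2.01 and 2.03, and the nearest outside were both 1.99. The smallest ratios of parenchyma to meninges were 1.04 and 1.10, and the nearest outside 0.966 and 0.906, the latter for a gene with 2018 CPM in blood, 670.2 CPM in CSF, 1573 CPM in meninges and 1425 CPM in parenchyma.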

How the data were processed

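For each of 12 mRNA libraries (TruSeq, per the labels' protocols) the authors deposited raw read counts per Ensembl rat gene. The tools listed in the submitters' processing notes, without roles, are STAR, HTSeq, SAMtools, CASAVA 1.8.2 and DESeq2; the genome build, annotation and strand setting were not given in the sources used here. The 5 closing summary lines were left out of totals and tests; because reads aligned to several places were not counted to genes, near-identical genes are under-counted.

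CPM is the count per 1000000 gene counts. Counts were fitted in R 4.3.3 with edgeR 4.0.16 (filterByExpr, TMM scaling, quasi-likelihood test, 1 fit of all libraries with compartment as the only term), two-sided against blood; a call is an adjusted p under 0.05 over 11498 genes. Standard errors were derived from the F statistic. Functions were tested on simulated data. DESeq2 1.42.0 and other settings were alternatives.

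The members, lists and rules were chosen with earlier results of these data known. The planned gene lists, marker lists and name-based parts of the naming rule need names and could not be used; the rule then names 2 genes with most parenchyma reads and 2 with the largest fall from blood to CSF. Genes given by rank were chosen after their values were seen. Same-numbered libraries deviated together for CSF and blood (correlation across genes 0.149 to 0.339) and parenchyma and blood (0.193 to 0.323), but for meninges and blood 1 of 3 pairs was at 0.0766. The numbers are from the titles, and differently numbered libraries were not compared, so a pairing is not established.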

Additional observations from a re-analysis of the deposited data

How the results depend on the processing

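The number of genes meeting the rule was 152 with a minimum of 2 CPM in parenchyma, 214 with meninges at least 1.5 times CSF and 45 with at least 3 times, as wider or narrower limits must give. It stayed within 1.5 times of 94 with a minimum of 10 CPM (70), group medians (97, of which 85 shared), TMM-scaled CPM (94, of which 93 shared) and each library left out (79 to 112), and 66 of the 94 met the rule under all 9 omissions. Counts of members called against blood stayed within 1.5 times under every alternative tried: 51 to 74 for CSF, 74 to 87 for meninges and 89 to 91 for parenchyma. With the replicate block they were 69, 87 and 89, and every call without the block was also made with it. Adjusted p-values of the fit without the filter are not comparable with the others and were left out of the ranges given for single genes. For ENSRNOG00000003977 the difference between meninges and blood, -0.066, became 0.015 with the replicate block and 0.51 without blood replicate 1, and ran from -0.35 to 0.51 with a library left out. That between parenchyma and blood, 0.26, became -0.023 without blood replicate 2, ran from there to 0.84 over such omissions, and was called only without blood replicate 1. Depth limits the genes with few CSF or blood counts most. The omission of both libraries with most multiply aligned reads, the shares with the 3 left-out identifiers, and all alternatives for the order of libraries were chosen after seeing the data.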
